A study of Mus musculus with 170 samples.

Results

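Young adipocytes, the lipid-storing cells of fat, were set against young fat progenitors, the stromal cells from which new adipocytes form. The comparison takes the 3 young adipocyte libraries and the 4 young fat progenitor libraries, 7 of 170 libraries in a bulk RNA-seq survey of 23 mouse cell types, and covers every gene that could be tested. Both cell types came from visceral fat of 2-month-old mice on a C57/Bl6 background that carry no other label of genotype or treatment, and were purified by fluorescence-activated cell sorting. The sort markers are not given in the sources used here. Each library pooled tissue of 5 animals, so p-values reflect the spread between pools. The same cell types from mice aged 22 to 24 months (5 adipocyte and 3 progenitor libraries) served as a second set that shares no library with the young one.

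A white adipocyte holds a single large droplet of triglyceride coated by perilipins, fills it by taking up or making fatty acids, and empties it by lipolysis. It also secretes hormones such as adiponectin and leptin. Fat progenitors are fibroblast-like cells around the vessels and septa of the tissue that carry the PDGF receptor alpha, lay down collagen-rich matrix, and can turn on the nuclear receptor PPAR-gamma and C/EBP factors to become adipocytes. In bulk libraries, fewer cells of a type and less RNA per cell cannot be told apart.

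Total counts ran from 2068616 to 2290328 in adipocytes and from 1117409 to 4279901 in progenitors. Spearman correlations of libraries lay between 0.941 and 0.9504 within adipocytes, between 0.937 and 0.964 within progenitors and between 0.567 and 0.597 across the cell types. The 10 most abundant genes took 26.2% to 29.4% of counts in adipocytes against 9.90% to 11.5% in progenitors. A single gene, Car3, took 14.4% to 15.8% of adipocyte counts. Levels below are CPM, counts relative to the library size after TMM scaling, and a fold change is the log2 value of adipocytes minus progenitors. A gene is called where the adjusted p is under 0.05.

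The labels were first checked against the marker of each cell type. Adipoq, which encodes adiponectin (chr16:23146536-23158028, GRCm38), was at 6382, 7585 and 6354 CPM in the adipocyte libraries and at 0, 0, 1.67 and 0.422 CPM in the progenitor libraries. Pdgfra, which encodes PDGF receptor alpha (chr5:75152292-75198215), was at 2.20, 6.59 and 4.52 CPM in adipocytes and at 341, 345, 320 and 373 CPM in progenitors. Each marker was high in every library of its own cell type and low in every library of the other, with no overlap. The log2 fold changes were 13.16 ± 0.41 (SE) for Adipoq and -6.26 ± 0.28 for Pdgfra, with adjusted p = 7.56e-13 and 1.75e-11 (edgeR quasi-likelihood test, Benjamini-Hochberg adjusted). Each SE here and below is the absolute log2 fold change over the square root of the test's F statistic. It is approximate, and can be smaller than the counting error where a group holds few counts, as for Adipoq in progenitors (8 counts).

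**Figure D1:**
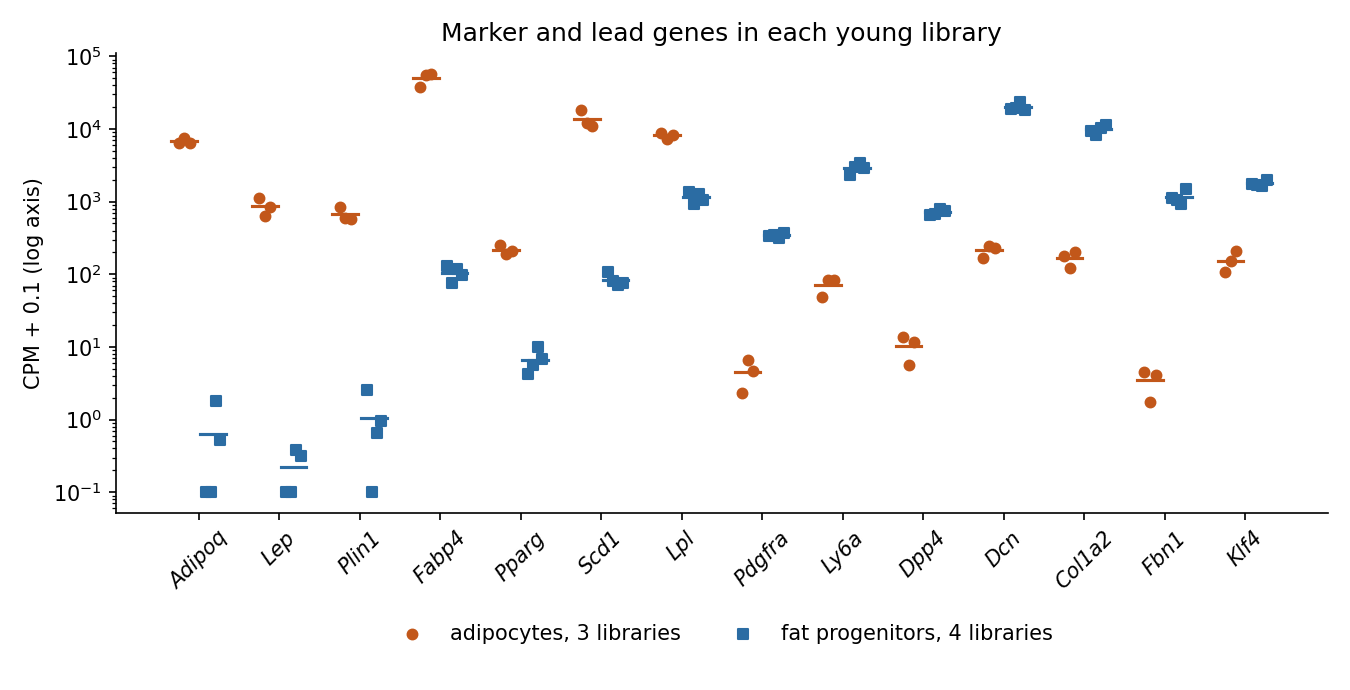
Level of 14 genes in each young library, as CPM + 0.1 on a log axis, with a bar at the mean. Circles are the 3 adipocyte libraries and squares the 4 progenitor libraries; adipocyte genes from Adipoq to Lpl lie higher in all circles, and genes from Pdgfra to Klf4 higher in all squares.

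Of 11891 genes tested, 6946 (58.4%) were called. Adipocytes had 3248 genes higher (27.3%) and 3698 lower (31.1%). These shares are the background for the counts by list below. With a fold of at least 2 in addition, 2395 were higher (20.1%) and 2803 lower (23.6%), 5198 in all (43.7%). The median log2 fold change over all genes tested was -0.08. All 18 adipocyte markers tested were higher in adipocytes, with a median of 9.34 and values from 4.35 (Cidea) to 13.16 (Adipoq). Of 15 fat progenitor markers tested 14 were lower, with a median of -5.61. The remaining one, Itgb1, an integrin subunit found on many cells, had a log2 fold change of -0.38 (adjusted p = 0.0639).

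Among the 15 named genes higher in adipocytes, Car3, which encodes the cytosolic carbonic anhydrase 3 (chr3:14863512-14872523), was at 166728, 190821 and 165890 CPM in adipocytes and at 27.1, 22.0, 30.7 and 51.8 CPM in progenitors, a log2 fold change of 12.33 ± 0.42. Cfd, the complement protease adipsin (chr10:79890853-79892655), was at 21886, 33980 and 24014 CPM against 0, 0.512, 0.558 and 1.90 CPM, and had the highest log2 fold change of the named genes, 14.61 ± 0.44. Both genes were high in every adipocyte library and near the floor of detection or low in every progenitor library. Lep, the satiety hormone leptin, was at 1121, 630 and 855 CPM, while progenitors held 2 counts of it in total. The ratio of pooled levels was 4987, with an exact 95% interval from 1380 to 41191 that covers counting error only. The leptin levels varied between the adipocyte pools, but the lowest was far above any progenitor library.

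Cidec and Plin4, proteins of the droplet surface, followed with log2 fold changes of 12.64 and 10.96. Retn, the hormone resistin, had 12.50, and Cyp2e1, a cytochrome P450 of fatty acid and ethanol oxidation, 12.38. Pck1, which makes the phosphoenolpyruvate used for glycerol synthesis, had 11.63, and Dgat2, which adds the last acyl chain to triglyceride, 11.19. Sncg, gamma-synuclein, had 10.93. Aldh1a7, a cytosolic aldehyde dehydrogenase with the close paralog Aldh1a1, was at 172, 136 and 151 CPM with no count in any progenitor library, at least 585-fold higher against a floor of 3 counts over the group. Wfdc21, Lrg1 and Ces1f had 1, 3 and 1 counts in progenitors, and pooled ratios of 5911 (1060 to 233549), 2475 (846 to 12009) and 3036 (544 to 120000). Of these, Lrg1 varied between the adipocyte pools, from 261 to 1138 CPM. Ces1f lies in a cluster of similar carboxylesterases, so its split from its neighbours is uncertain, as is that of Aldh1a7.

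**Figure D2:**
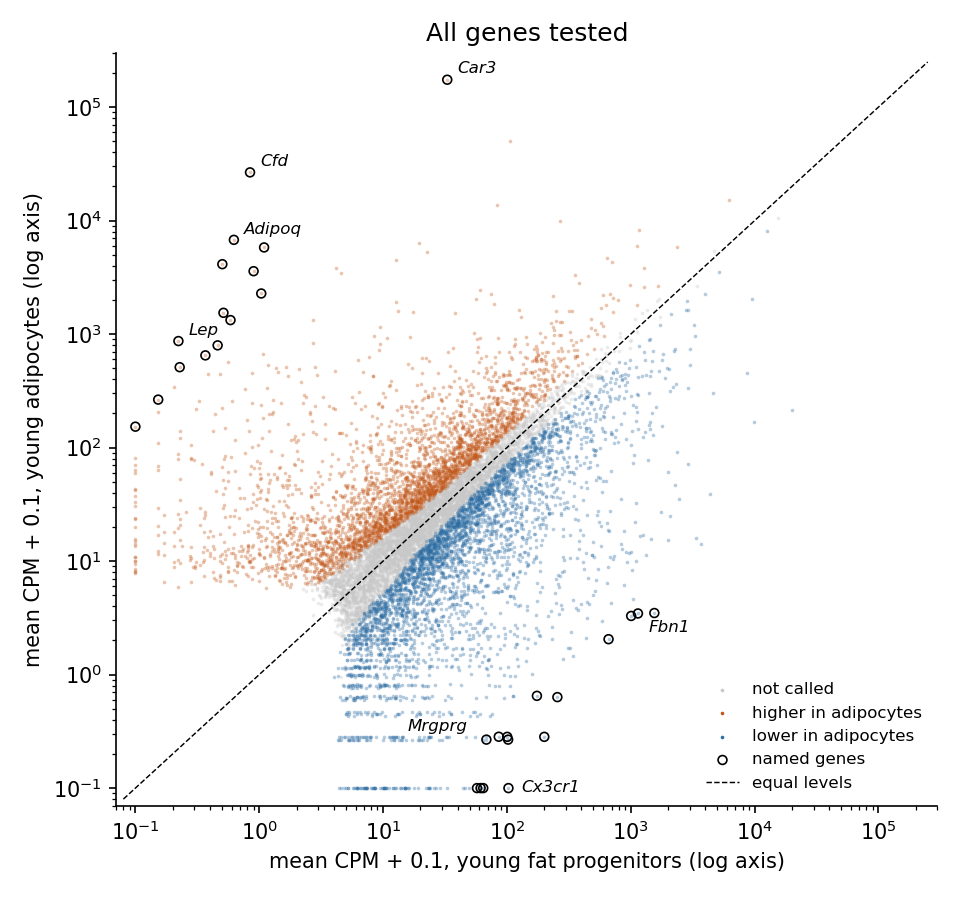
Mean CPM + 0.1 of each gene tested in progenitors (horizontal) and adipocytes (vertical), on log axes, coloured by call; open circles are the 30 named genes. Named adipocyte genes sit at the top left, up to Car3 at 174479 CPM, and named progenitor genes at the bottom right, with Cx3cr1, Ackr2, Adamts16 and Mfap4 at 0 counts in adipocytes.

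Promoters of the lead genes are shown because CpG sites were few in most of those of the adipocyte genes. The windows are the 250 bases before the start of a gene's RefSeq transcript on GRCm38.p6, and 21 of the 30 named genes and 8705 of the genes tested had one. CpG sites are in capitals. Adipoq (chr16:23146286-23146535, plus strand), Cfd (chr10:79890603-79890852, plus) and Lep (chr6:29059971-29060220, plus) are from the adipocyte side, and Pdgfra (chr5:75152001-75152250, plus) and Fndc1 (chr17:7827303-7827552, minus) from the progenitor side.
Adipoq: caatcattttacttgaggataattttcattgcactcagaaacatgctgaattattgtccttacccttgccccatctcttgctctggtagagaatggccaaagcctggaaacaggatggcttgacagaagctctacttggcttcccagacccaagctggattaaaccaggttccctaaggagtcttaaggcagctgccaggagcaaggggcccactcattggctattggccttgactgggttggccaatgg
Cfd: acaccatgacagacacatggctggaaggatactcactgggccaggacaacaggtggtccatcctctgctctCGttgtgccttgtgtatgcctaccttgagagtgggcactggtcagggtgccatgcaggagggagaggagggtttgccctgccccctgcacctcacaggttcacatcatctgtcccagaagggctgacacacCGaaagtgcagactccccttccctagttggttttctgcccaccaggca
Lep: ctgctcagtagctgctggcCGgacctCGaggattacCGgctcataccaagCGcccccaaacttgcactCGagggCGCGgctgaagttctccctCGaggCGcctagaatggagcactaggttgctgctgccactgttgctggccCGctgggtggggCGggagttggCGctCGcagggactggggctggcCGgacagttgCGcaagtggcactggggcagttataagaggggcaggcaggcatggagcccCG
Pdgfra: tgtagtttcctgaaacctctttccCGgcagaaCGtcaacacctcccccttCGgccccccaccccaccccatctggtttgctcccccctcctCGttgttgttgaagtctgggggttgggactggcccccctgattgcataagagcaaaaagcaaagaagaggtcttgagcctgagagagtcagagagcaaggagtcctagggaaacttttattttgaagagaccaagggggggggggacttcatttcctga
Fndc1: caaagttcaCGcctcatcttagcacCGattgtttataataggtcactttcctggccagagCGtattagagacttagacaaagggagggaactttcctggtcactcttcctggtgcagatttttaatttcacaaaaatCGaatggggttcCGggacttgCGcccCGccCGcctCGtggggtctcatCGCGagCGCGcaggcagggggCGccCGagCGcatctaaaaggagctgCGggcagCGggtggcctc
The window of Adipoq holds 0 CpG sites and that of Cfd 2, whereas that of Lep holds 16. Pdgfra has 4 and Fndc1 18. Lep and Fndc1 hold the most among the named genes of their side, and Pi16 and Ackr2 of the progenitor side hold 2 each. The median was 2 over the 11 named adipocyte genes with a window and 9 over the 10 named progenitor genes. It was 16 over all genes tested and 6 over all promoters, and no test was made of these medians. Over all genes with a fold of at least 2 the medians were close, 15 for those higher in adipocytes, 13 for those lower, and 17 for genes not called. The TATAAA box, searched on both strands, was found in 6.68% of promoters higher in adipocytes, 7.77% of those lower and 5.42% of those not called. It was found in 6.26% of promoters of all genes tested, and in 12.97% of all 27025 promoters, which include genes not tested. The direct repeat AGGTCANAGGTCA, the binding pattern of PPAR-gamma with its RXR partner, was found on either strand in 10 of all promoters and in 0 of the 1781 higher and 1815 lower ones, which says only that these exact letters are not in these windows.

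Lipid droplet proteins were mostly higher in adipocytes, 13 of 17 tested. Plin1, the perilipin that guards the droplet against lipases (chr7:79720218-79732903), was at 839, 602 and 583 CPM against 2.46, 0, 0.558 and 0.845 CPM. Plin5, a perilipin of oxidative cells, was at 6.61, 12.1 and 11.1 CPM with no count in progenitors, at least 38.1-fold higher. Fitm2 and Bscl2, needed to form droplets, had log2 fold changes of 5.56 and 3.09, and the caveola proteins Cav1 and Cav2 5.19 and 7.77. The members on the progenitor side were Plin3 (-1.29), a perilipin of most cells, Hsd17b11 (-1.67), Rab18 (-0.79) and Spg20 (-1.09). The perilipins thus divided by member, with Plin1, Plin4 and Plin5 at or near 0 in progenitors and Plin3 lower in adipocytes.

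Fatty acid synthesis followed the same direction, with 16 of 20 members higher and 2 lower (median 2.30). Scd1, the desaturase that makes oleate, was at 18161, 12040 and 10844 CPM in adipocytes and at 106, 81.8, 70.6 and 74.8 CPM in progenitors. Thrsp, a nuclear regulator of lipogenesis, was at 4610, 3358 and 2309 CPM against 3.80 to 5.12 CPM, and Fasn, fatty acid synthase, had a log2 fold change of 6.45. Adipocyte library 1 was the highest for both Scd1 and Thrsp, and all 3 were above all progenitor libraries. The carboxylases Acaca and Acacb had 4.77 and 6.50, Me1, which supplies NADPH, 4.12, and the regulators Srebf1 and Mlxipl 2.38 and 2.59. Lower in adipocytes were Fads2 (-3.25), the delta-6 desaturase, and Elovl1 (-1.28), an elongase of very long chains.

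For triglyceride assembly 14 of 17 members were higher and 2 lower (median 3.68). Agpat2, the acyltransferase whose loss causes lipodystrophy, had a log2 fold change of 7.18 ± 0.29, while its paralog Agpat4 had -3.76. Gpam and Gpat3, which take the first step, had 3.52 and 5.46. Gpd1, which makes glycerol phosphate from glycolysis, had 10.13, and Dgat1 3.91. Of the phosphatidate phosphatases Lpin1 had 3.68 and Lpin2 -0.87. Within the acyltransferase and lipin families, members thus lay on both sides of the comparison.

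Of 27 genes of lipolysis and its control, 23 were higher in adipocytes and 1 lower (median 5.28). The lipases Pnpla2, Lipe and Mgll, which remove the acyl chains in turn, had 6.88, 4.85 and 3.72. Adrb3, the beta-3 adrenoceptor that starts lipolysis, was at 628, 527 and 532 CPM in adipocytes and at 0.211 to 0.821 CPM in progenitors (log2 fold change 10.45 ± 0.30). Those receptors of the list that restrain lipolysis and could be tested were on the same side. Adra2a, the alpha-2A adrenoceptor, had a mean of 0 CPM in both cell types and was not tested. Adora1, the adenosine receptor, had 6.69, Ptger3 3.67, and the hydroxy acid receptors Hcar2 5.28, with Hcar1 at 2 counts in progenitors. Ffar4, a receptor for long-chain fatty acids, was at 56.2, 70.3 and 63.3 CPM with no count in progenitors, at least 242-fold higher.

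The natriuretic peptide receptors were divided between the cell types. Npr1, the guanylyl cyclase that signals, was at 11.6, 4.39 and 18.6 CPM in adipocytes and at 116, 138, 130 and 124 CPM in progenitors (log2 fold change -3.44 ± 0.31, adjusted p = 6.80e-08). Npr3, the receptor that clears the peptides, was at 477, 319 and 488 CPM against 2.46, 1.02, 0.837 and 2.11 CPM (8.06 ± 0.30, adjusted p = 3.27e-12). Neither gene overlapped between the groups, and their directions were opposite. Without adipocyte replicate 2 the count of lower members of the lipolysis list was 2 in place of 1.

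Fatty acid uptake genes were higher for 14 of 21 members and lower for 3 (median 2.72). Fabp4, the fatty acid carrier of fat cells (chr3:10204088-10208576), was at 37549, 55765 and 57256 CPM in adipocytes but also at 128, 76.7, 118 and 97.6 CPM in progenitors. Lpl, the lipase that frees fatty acids from lipoproteins, was at 8897, 7376 and 8352 CPM against 1376, 939, 1280 and 1037 CPM. Progenitors thus held the Lpl message in every library, and its log2 fold change of 2.83 ± 0.20 was smaller than the 8.90 ± 0.32 of Fabp4. Cd36, the fatty acid translocase, had 7.88, the transporter Slc27a1 6.49 and the acyl-CoA synthetase Acsl1 6.84. The lipoprotein receptors Vldlr (-1.71) and Lrp1 (-1.93) and the synthetase Acsl5 (-0.85) were lower.

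Insulin signalling and glucose uptake was a mixed list, with 13 of 25 members higher and 5 lower (median 0.75). Slc2a4, the insulin-responsive carrier GLUT4, was at 143, 106 and 98.0 CPM in adipocytes and at 0 to 1.64 CPM in progenitors (8.16 ± 0.40). Trarg1, which acts in its trafficking, had 6.83. The receptors divided, with the insulin receptor Insr at 1.96 and the IGF-1 receptor Igf1r at -2.20. So did the kinases Akt2 (1.24) and Akt1 (-1.58), and the hexokinases Hk2 (2.26) and Hk1 (-1.89).

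Adipokines and other secreted factors were higher for 15 of 20 members and lower for 3. Rbp4, the retinol carrier, had 7.11, Agt, angiotensinogen, 9.35, Nrg4, a growth factor to the liver, 5.73, and Nnat, the membrane proteolipid neuronatin, 8.18. Metrnl was at 7.16, 29.1 and 18.6 CPM in adipocytes and at 525, 668, 834 and 664 CPM in progenitors (-5.20 ± 0.34). Fst, follistatin, which binds activins, had -6.08. Complement itself was divided, with 6 of 16 members higher and 8 lower. Beside Cfd, the adipocyte side held C4b (4.01), C2 (2.07), Cd59a (5.13) and C6, and the progenitor side C3 (-2.48), C1ra (-4.13), C1s1 (-3.49) and the inhibitor Serping1 (-3.54). C3, the central component, was at 516 to 569 CPM in adipocytes and at 2927 to 3123 CPM in progenitors.

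Genes of mitochondrial energy metabolism were higher almost throughout. All 25 members tested of the citric acid cycle and pyruvate entry were higher in adipocytes (median 1.98). So were all 35 nuclear-encoded subunits in the oxidative phosphorylation list (median 1.81), which does not hold every such subunit. The same held for all 20 of branched-chain amino acid breakdown (median 2.51). Cox7a1, a nuclear-encoded subunit kept in the thermogenic list, had 0.73 and was not called. Genes of the mitochondrial genome had 0 counts in every fat library, so subunits encoded there could not be tested. In fatty acid oxidation 17 of 20 were higher and 2 lower (median 2.16). Pcx, pyruvate carboxylase, was at 640, 476 and 416 CPM against 0, 3.07, 1.67 and 1.48 CPM (8.23 ± 0.33). Subunit changes were narrower, with Cox5a at 4.08, Uqcrc2 at 3.21, Ndufs3 at 2.86 and Cox7c at 1.20. Aldh6a1 and Hibch of valine breakdown had 4.94 and 4.04, and Acadm, the medium-chain dehydrogenase, 3.71. Cpt1a, the liver-type gate of fatty acid entry, was at 15.4, 15.9 and 26.6 CPM in adipocytes and at 78.8, 77.2, 68.9 and 80.5 CPM in progenitors (-1.97 ± 0.23), and Acaa2, a thiolase of the last step, had -1.20. Of 16 thermogenic genes 7 could be tested and 5 were higher, among them Cox8b (6.62) and Cidea (4.35). Ucp1, the uncoupling protein of brown fat, had a mean of 0 CPM in both cell types, as had Elovl3 and Cpt1b. Dio2 was at 1.20 CPM in adipocytes and 0.479 CPM in progenitors. These genes did not pass the filter on low counts. Prdm16 was tested and not called (-0.03).

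**Figure D3:**
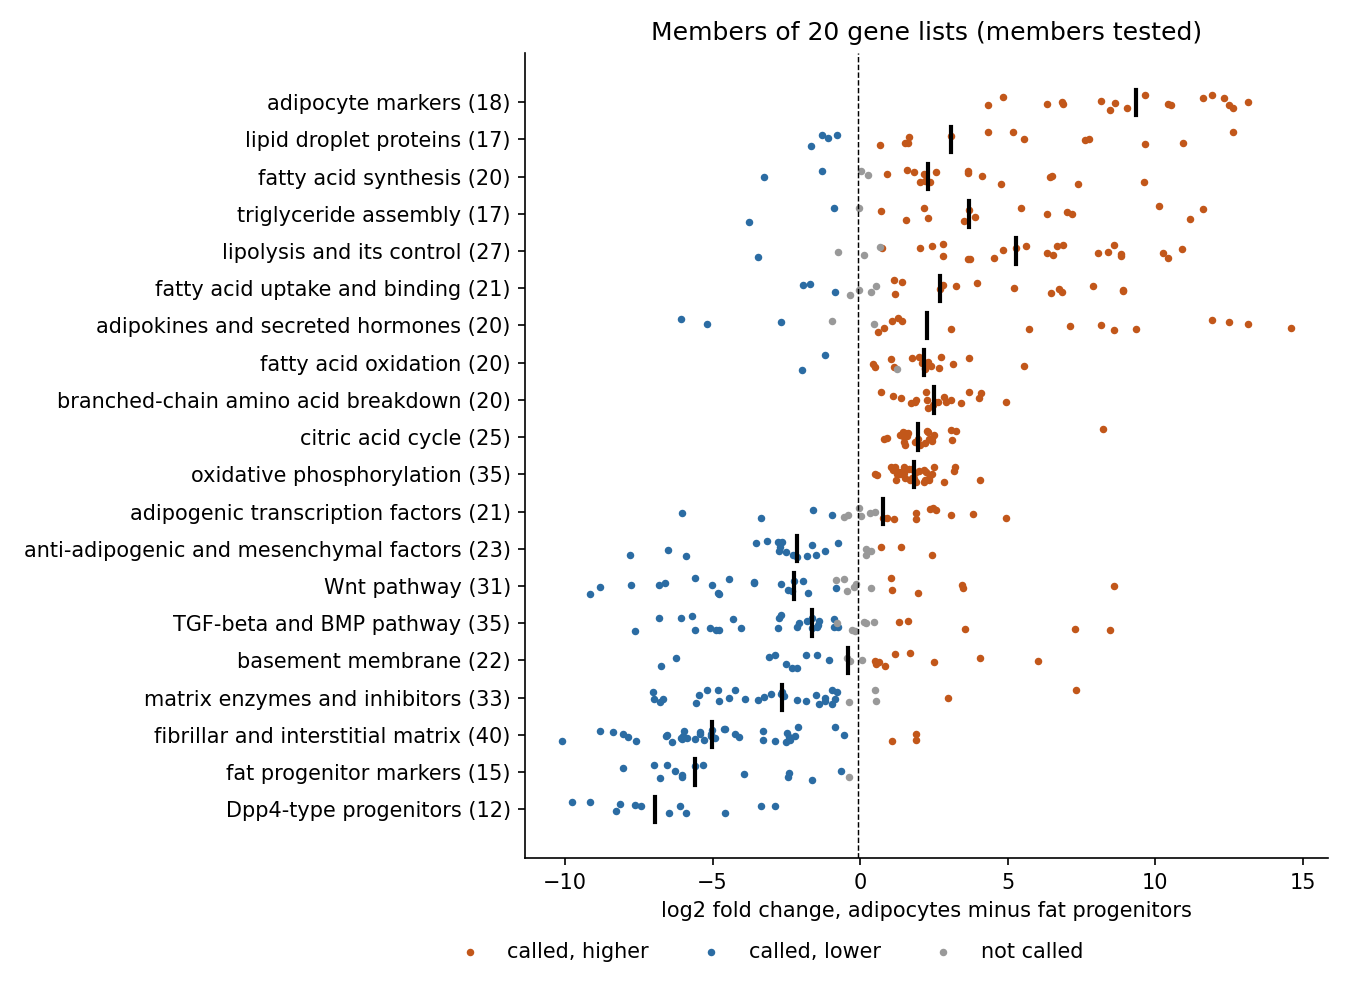
Log2 fold change of each member tested (points, coloured by call) in 20 gene lists, with a bar at the median and the number tested in brackets; the dashed line is the median of all genes tested, -0.08. Lists of lipid and mitochondrial metabolism lie to the right and lists of matrix and progenitor genes to the left.

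Of 21 adipogenic transcription factors tested, 11 were higher and 4 lower (median 0.78). Pparg, the master regulator (chr6:115360951-115490399), was at 254, 192 and 210 CPM in adipocytes and at 4.10, 5.63, 9.77 and 6.76 CPM in progenitors (4.95 ± 0.24, adjusted p = 4.49e-11). Cebpa, its partner, was at 151, 155 and 175 CPM against 20.5, 14.3, 7.81 and 7.82 CPM (3.82 ± 0.27). The 4 lower members were Cebpd, induced at the start of differentiation, at -1.59, Klf9 at -0.95, Ebf2, which marks committed precursors, at -3.36 and Creb5 at -6.04. Cebpb, which is also induced early, had 0.78, and 0.45 with adjusted p = 0.158 without adipocyte replicate 2. Klf15 and Stat5a, which act later, had 3.10 and 2.48.

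Factors that restrain differentiation or mark mesenchymal cells were lower for 17 of 23 members and higher for 3 (median -2.14). Klf4 was at 106, 152 and 206 CPM in adipocytes and at 1740, 1720, 1638 and 2008 CPM in progenitors. Tcf21, Wt1 and Osr1, factors of visceral mesenchyme, had -7.79, -6.52 and -5.91. Prrx1 had -3.16, Twist1 -1.80, Zeb1 -2.26, and Klf2 and Klf3 -2.52 and -2.14. The members higher in adipocytes were Runx1 (1.37), Meox2 (2.42) and Zeb2 (0.69). The nuclear receptors were mixed, 10 of 24 higher (41.7%, against 27.3% of all genes tested) and 7 lower. The lower share, 29.2%, was near the 31.1% of all genes tested. Thrb, Ppara and Nr1h3 were among the higher ones (1.70, 1.95 and 1.88), and Rarg (-1.78) among the lower. Of the lower receptors 5 were within a fold of 2, and the count of lower members was 4, 3 and 4 without adipocyte replicate 2, adipocyte replicate 3 and progenitor replicate 1.

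Among the 15 named genes lower in adipocytes, Cx3cr1, the fractalkine receptor (chr9:119901616-120069879, a span that overlaps 5 other protein-coding models), was at 101, 124, 89.9 and 96.1 CPM in progenitors with no count in adipocytes, at least 187-fold lower in adipocytes. Ackr2, a scavenger of chemokines, was at 58.3, 67.0, 71.2 and 60.6 CPM and at least 121-fold lower. Adamts16, a secreted protease, was at 33.6, 86.4, 51.9 and 72.9 CPM and also at least 121-fold lower. Mfap4, a protein of elastic fibres, was at 74.7, 50.1, 59.4 and 44.8 CPM and at least 100-fold lower. All 3 adipocyte libraries had 0 counts of these 4 genes.

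Cadm3, Calml4, Aldh1a3, Gxylt2 and Mrgprg each had 1 count over the adipocyte libraries, and Fndc1 and Flrt2 had 3. Cadm3, an adhesion protein, had a pooled ratio of 1115 (199.96 to 44067), progenitors over adipocytes, and Aldh1a3, a retinaldehyde dehydrogenase, one of 580 (104 to 22943). Mrgprg, an orphan receptor, was uneven among progenitors, at 17.2, 24.0, 212 and 19.4 CPM, with replicate 3 far above the others. Col14a1, a collagen of fibril surfaces, had -8.82 ± 0.33, Fbn1, the fibrillin of microfibrils, -8.38 ± 0.33, Smpd3, a neutral sphingomyelinase, -8.37 ± 0.36 and Pi16, a peptidase inhibitor of universal fibroblasts, -8.28 ± 0.27. Pi16 was at 2.75, 3.29 and 3.52 CPM in adipocytes and at 874, 1083, 1034 and 1041 CPM in progenitors. The rule for named genes required that the groups do not overlap.

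Pi16 also marks the Dpp4-type interstitial progenitors, a stem-like state of the fat stroma. All 12 genes of that list were lower in adipocytes, with a median of -6.94, or -5.86 with genes at 0 in adipocytes taken at their bound. Dpp4 itself was at 13.8, 5.49 and 11.6 CPM in adipocytes and at 652, 676, 784 and 752 CPM in progenitors. Wnt2, Dact2, Bmp7 and Stmn4 had no count in adipocytes. The list of Icam1-type preadipocytes, a committed state, was divided, 6 of 10 higher and 3 lower, and its higher members Fabp4, Cd36, Lpl and Pparg are also genes of mature adipocytes. Of 9 genes of F3-type regulatory progenitors 8 were lower and Meox2 higher. Gdf10 (-5.60), Mgp (-6.87) and Vit (-6.22) had the lowest values. These lists describe states within the progenitor pool, which bulk libraries do not separate.

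Of 40 genes of the interstitial matrix tested 37 were lower in adipocytes and 3 higher, with a median of -5.03. Col1a2, a chain of type I collagen (chr6:4504814-4541544), was at 181, 121 and 204 CPM in adipocytes and at 9276, 8377, 10470 and 11517 CPM in progenitors (-5.87 ± 0.28). Dcn, decorin, was at 166, 244 and 231 CPM against 18597, 19216, 23815 and 18006 CPM (-6.54 ± 0.29). Both genes were low in all adipocyte libraries. Fibronectin (Fn1) had -6.38, elastin (Eln) -5.99, versican (Vcan) -6.08 and periostin (Postn) -5.07. The members higher in adipocytes were Prelp (1.89), Thbs1 (1.90) and Thbs2 (1.08), a matrix anchor and a pair of thrombospondins.

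Basement membrane, the sheet that wraps each fat cell, was divided, 9 of 22 higher and 10 lower (median -0.40). The type IV collagen chains were divided, with Col4a1 and Col4a2 higher (0.54 and 1.17), Col4a4 and Col4a5 lower (-2.53 and -6.74) and Col4a3 not called (0.05). Col4a1 was not called without progenitor replicate 2 (adjusted p = 0.0609) or with no filter on low counts (adjusted p = 0.143). Higher as well were the laminin-binding integrin subunits Itga6 (4.07) and Itga7 (6.03). The laminin chains tested were lower, from Lama2 at -6.24 to Lama4 at -1.04, with Lamb1 at -2.31 and Lamc1 at -2.14. Without progenitor replicate 2 the count of higher members was 5. Among matrix enzymes and inhibitors 28 of 33 were lower, such as Mmp2 (-6.79), Mmp14 (-6.67) and Loxl2 (-5.55). Timp2 was at 8.26, 20.3 and 17.1 CPM in adipocytes against 1918, 1905, 2002 and 2178 CPM (-7.03 ± 0.29), while its relative Timp4 was at 452, 299.7 and 384 CPM against 0.821, 2.56, 2.23 and 2.75 CPM (7.32 ± 0.27). Timp4 and Adamts9 (2.98) were the higher members, and this count was 4 with RLE size factors, without adipocyte replicate 3 and without progenitor replicate 3.

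In the TGF-beta and BMP family 24 of 35 members were lower and 5 higher (median -1.64). Tgfbr2, the type II receptor, was at 28.6, 17.0 and 19.1 CPM in adipocytes and at 607, 668, 590 and 697 CPM in progenitors (-4.89 ± 0.23), and Tgfb2, a ligand, had -5.70. Acvr1c, the receptor ALK7, was at 992, 731 and 774 CPM against 4.10, 2.56, 1.40 and 2.32 CPM (8.47 ± 0.28). Bmp3 (7.29), a ligand that opposes other BMPs, and Chrdl1 (3.56), a BMP antagonist, were also higher. Bmp7 had no count in adipocytes, and Bmp4 had -2.68.

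Of 31 Wnt pathway genes 19 were lower and 6 higher (median -2.26). The ligands called were all lower, with Wnt5a at -1.92 and Wnt11 at -3.59, and Wnt10b, known to block adipogenesis, held 1 count in adipocytes. Secreted inhibitors were divided. Sfrp4 was at 3.85, 1.10 and 1.005 CPM in adipocytes and at 334, 411, 576 and 410 CPM in progenitors (-7.75 ± 0.37), and Sfrp2 had -6.83. Sfrp5 was at 15.97, 12.1 and 31.7 CPM with no count in progenitors, at least 77.6-fold higher. Dkk3 was at 23.0, 22.5, 23.4 and 23.9 CPM in progenitors with no count in adipocytes, at least 43.9-fold lower. The receptor Fzd4 had 1.97, in contrast to Fzd1 (-2.30), Fzd2 (-4.77) and Fzd7 (-2.70).

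Both PDGF receptors were lower in adipocytes, Pdgfrb at -2.42, whereas the ligands Pdgfa (1.17) and Pdgfc (1.33) were higher and Pdgfd (-2.37) lower. Without adipocyte replicate 1 the list had 1 higher member in place of 2, as Pdgfa was not called (adjusted p = 0.05002). In the FGF and IGF list 9 of 16 were lower (56.25%, against 31.1% of all genes tested) and 4 higher. The higher share, 25%, was near the 27.3% of all genes tested. Klb, the co-receptor for endocrine FGFs, had 3 counts in progenitors and a pooled ratio of 157 (52.9 to 765), and Igf1, the growth factor, had 1.09. Igfbp6, which binds IGF-2, was at 17.6, 10.4 and 19.6 CPM in adipocytes and at 3005, 3898, 3412 and 3218 CPM in progenitors (-7.73 ± 0.29), and Fgf7, a growth factor to epithelia, had -5.80. In the hedgehog list 5 of 8 were lower, with the co-receptors Gas1 (-5.37) and Cdon (-4.09) lowest, and Ptch1 (1.82) was the higher one, with a second higher member without adipocyte replicate 3.

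Of 25 chemokines and cytokines 14 were lower and 5 higher. Il33, an alarmin of the fat stroma, had -5.29, Ccl11, the eosinophil attractant, -4.02, Cxcl13 -5.98 and Csf1, the macrophage growth factor, -2.10. Cxcl9 (3.59) and Cxcl10 (1.92), both induced by interferon, were higher. Of 18 cell cycle genes tested 9 were higher and 1, Mcm6 (-1.42), lower, and their levels were low, with Mcm2 at 17.99 against 7.40 CPM. Of the immediate-early and heat-shock genes, a list that can be induced when tissue is dissociated, 5 of 22 were higher (22.7%) and 7 lower (31.8%). These shares were near the 27.3% and 31.1% of all genes tested, and the list median was -0.25. Single members ranged in direction, with Dusp1 at -1.76, Jun at -0.83 and Btg2 at 2.67.

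Markers of other cells differed between the libraries as well. Over 10 endothelial markers, all detected, the summed level was 391 to 728 CPM in adipocytes and 162 to 175 CPM in progenitors, with 9 of 10 higher in adipocytes. Gpihbp1, which holds Lpl on capillaries, was at 171, 270 and 298 CPM against 0, 5.12, 0.837 and 2.75 CPM, and Cdh5 at 42.4, 45.6 and 86.4 CPM against 0, 1.53, 0.837 and 1.27 CPM. Tek was the exception, at 11.01, 9.33 and 23.1 CPM in adipocytes and at 131, 142, 142 and 157 CPM in progenitors. Pericyte and smooth muscle markers summed to 243 to 328 CPM in adipocytes against 22.0 to 32.9 CPM, with 7 of 7 tested higher, and Rgs5, the pericyte marker, had 4.76.

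Lymphocyte markers summed to 224 to 312 CPM in adipocytes and 10.7 to 14.8 CPM in progenitors, with 5 of 5 tested higher. Cd3d, a chain of the T cell receptor complex, was at 50.7, 82.3 and 73.4 CPM against 1 count in progenitors, and Nkg7, of cytotoxic cells, at 71.0, 84.5 and 84.9 CPM against 2 counts. Of the 10 markers 1 was at 0 in all adipocyte libraries. Macrophage markers were on the other side, 173 to 296 CPM in adipocytes against 474 to 580 CPM, with 4 of 7 lower and Lyz2 (2.70) higher. Without adipocyte replicate 1, progenitor replicate 1 or progenitor replicate 2 there were 2 higher members. Mesothelial markers, of the lining of visceral fat, summed to 14.3 to 19.8 CPM against 89.0 to 165 CPM, with 6 of 6 tested lower, and 3 in a fit that included the old libraries.

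Haemoglobin transcripts dominated the erythroid list, at 499 to 1273 CPM in adipocytes and 37.9 to 251 CPM in progenitors, with 4 of 4 higher. Hbb-bs was at 319, 752 and 832 CPM against 160, 23.5, 46.3 and 90.6 CPM, uneven in both groups. Acta1, a skeletal muscle actin, was at 213, 138 and 169 CPM against 6.57, 1.02, 0.837 and 1.90 CPM, while 5 of the 7 muscle markers were at 0 in all adipocyte libraries. Neutrophil and mast cell markers summed to at most 19.6 CPM and epididymal markers to at most 9.21 CPM, with no member tested. Without adipocyte replicate 1 each list had 1 member called, higher and lower in adipocytes in turn, the latter also without adipocyte replicate 2. The part of other cells in the results above was not tested. The 18 adipocyte markers summed to 73.1 to 101 CPM in progenitors, most of it Car3, Lipe and Pnpla2 at means of 32.9, 22.1 and 13.1 CPM, with the other 15 each under 4 CPM. By contrast, progenitor markers summed to 8208 to 9499 CPM in adipocytes, most of it Gsn at 8095 CPM on average, against 44866 to 57620 CPM. Gsn had -0.64 and was not called without adipocyte replicate 3 (adjusted p = 0.0887) or with all fat libraries in 1 fit (adjusted p = 0.0655).

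**Figure D4:**
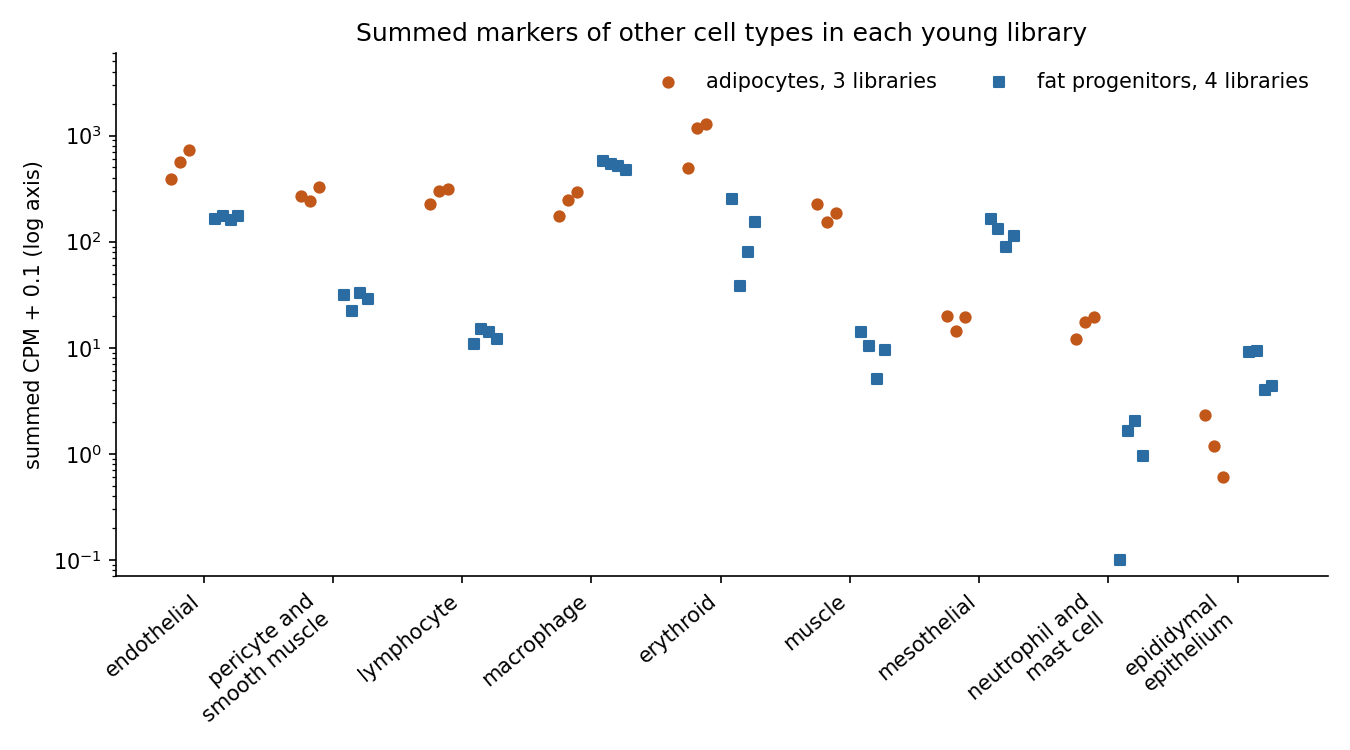
Summed CPM + 0.1 of the markers of 9 other cell types in each young library, on a log axis; circles are adipocyte and squares progenitor libraries. Endothelial, pericyte, lymphocyte, erythroid and muscle sums are higher in all adipocyte libraries, and macrophage and mesothelial sums in all progenitor libraries.

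Against the other young cell types, given here as CPM of the unscaled library total over 84 young libraries, 14 of the 15 named adipocyte genes had their highest mean in adipocytes. Lrg1 was the exception, at 565 in adipocytes and 2154 ± 338 (SD, n = 3) in lymph node endothelial cells. Of the 15 named progenitor genes 10 were highest in progenitors, and 3 of the other 5 in another fibroblast type, such as Mfap4 at 62.4 in progenitors and 423 ± 55.1 (n = 3) in lymph node fibroblasts. Both sets were chosen for high levels and extreme differences in these same libraries, so top ranks follow in part from the choice. The share of all genes with such a rank was not taken. Fbn1 was at 1249.9 in progenitors and 1234 ± 643 (n = 3) in muscle fibroblasts, a difference within the spread. The same held for Calml4, at 111 against 102 ± 17.4 (n = 4) in kidney endothelial cells, and for Cadm3, at 219 against 185 ± 88.5 (n = 2) in neurons. Adipoq was at 5806 in adipocytes, and its next level was 263 ± 38.3 (n = 4) in naive CD8 T cells. Those T cells also held the second highest level of Cfd, at 536 ± 36.3 against 22761, and of Car3, at 3183 ± 241 against 149632. The same was true of Cidec, Retn, Cyp2e1, Lep and Plin4. For the remaining named adipocyte genes the highest other type was a different one. These levels are a description, and their source in T cell libraries was not tested.

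In old animals the same contrast called 6509 of 13545 genes (48.1%), 3219 higher (23.8%) and 3290 lower (24.3%). Of 6826 genes called in the young and tested in the old, 6412 (93.9%) had the same sign, 4632 (67.9%) were called in the same direction and 34 in the opposite one. All 30 named genes were called with the same sign, with an absolute log2 fold change of at least 3.26. They were chosen for their extreme values in the young, so smaller values in the old are no finding. The old comparison also had 18 of 18 adipocyte markers higher, 12 of 12 Dpp4-type genes lower, 34 of 41 matrix genes lower and 26 of 35 oxidative phosphorylation genes higher. The 4 haemoglobin genes were not called in the old.

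**Figure D5:**
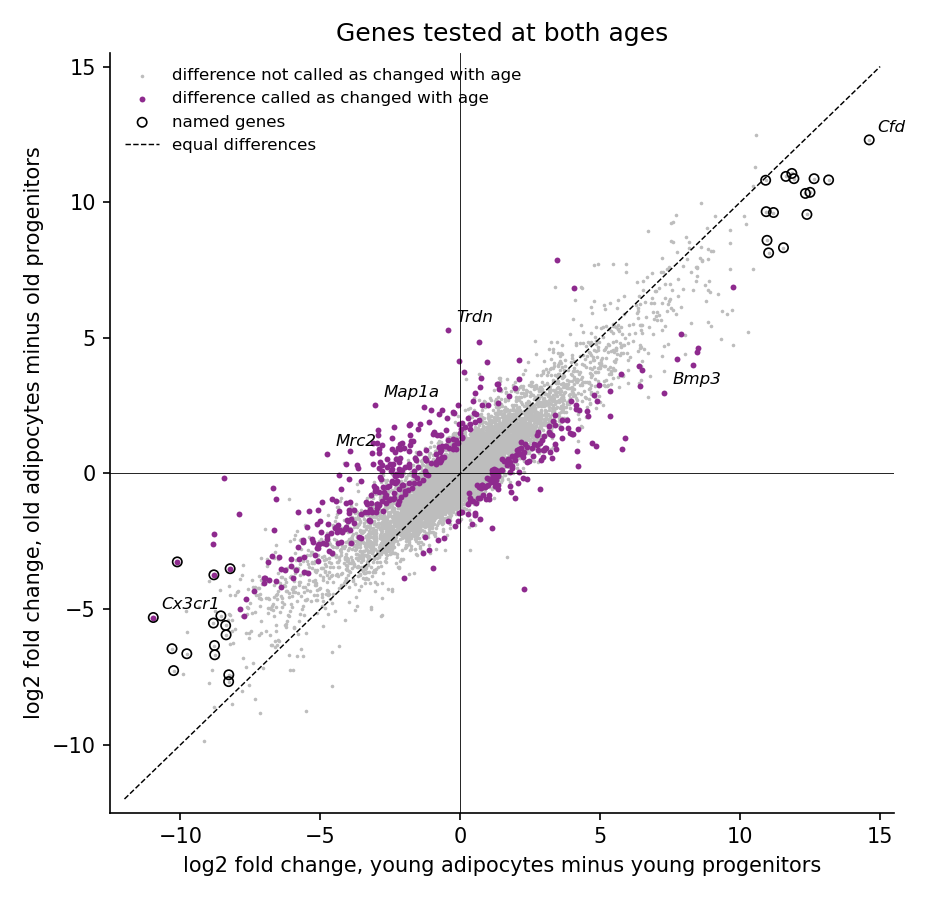
Log2 fold change of adipocytes minus progenitors in young (horizontal) and old animals (vertical) for the 11736 genes tested at both ages; purple points are genes whose difference was called as changed with age and open circles the named genes. Most points follow the dashed line of equal differences, and Trdn, Map1a and Mrc2 lie above it.

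Whether the difference between the cell types changed with age was tested by an interaction over all 15 fat libraries, scaled together. It called 487 of 14185 genes (3.43%), 322 with a higher value in the old (2.27%) and 165 with a lower one (1.16%). Trdn, triadin of the sarcoplasmic reticulum, was at 3.78 ± 2.34 CPM in young adipocytes (SD, n = 3) and 135 ± 53.8 CPM in old ones (n = 5), with 4.71 ± 1.55 and 3.27 ± 0.863 CPM in young and old progenitors. Its interaction was 5.74 ± 0.66 (SE, adjusted p = 7.53e-05). Map1a, a microtubule-associated protein, and Mrc2, an endocytic collagen receptor, were at 4.88 and 2.59 CPM in young and at 90.2 and 69.0 CPM in old adipocytes, with interactions of 5.59 ± 0.62 and 5.49 ± 0.72. Cx3cr1 (5.99) and Mfap4 (7.18) had 0 counts in young adipocytes, so their interactions depend on the prior count, and Cx3cr1 was not called without any 1 of the young adipocyte libraries or old progenitor replicate 1 (adjusted p from 0.05001 to 0.0868).

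In the other direction, Bmp3 was at 1.11 ± 0.879 CPM in young progenitors (n = 4) and 29.3 ± 16.01 CPM in old ones (n = 3), with 207 ± 102 and 240 ± 101 CPM in young and old adipocytes (-4.32 ± 0.74). Ccl5 (-3.97) and Nkg7 (-3.90), genes of cytotoxic lymphocytes, were not called without old progenitor replicate 2 (adjusted p = 0.0729 and 0.203) or without young progenitor replicate 4 (0.0536 and 0.0575). Nr1d1, a repressor of the circadian clock, was at 55.4 ± 7.13 CPM in young adipocytes and 21.1 ± 6.95 CPM in old ones, with 3.52 ± 2.19 and 11.4 ± 5.91 CPM in progenitors (-3.31 ± 0.57). Snhg11, a noncoding host gene, had -3.39 ± 0.42.

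By list, 13 of 41 matrix genes were called in the interaction, 12 with a higher value in the old and 1, Thbs2 (-1.36), with a lower one. Col1a2 was at 177 ± 45.7 CPM in young and 513 ± 142 CPM in old adipocytes, and at 10055 ± 1643 and 5859 ± 809 CPM in young and old progenitors. Macrophage markers had 6 of 10 called, all higher, with C1qb at 25.3 ± 5.05 CPM in young and 275 ± 191 CPM in old adipocytes, and mesothelial markers 5 of 9, all higher. In fatty acid synthesis 5 of 20 were called, all with a lower value in the old, among them Acaca (-1.84) and Acacb (-2.71). Old adipocyte replicate 5 stood apart, with Car3 at 3.17% of counts against 6.004% to 8.30% in the other old adipocyte libraries and Dcn at 0.322% against 0.0341% to 0.0750%. Without it 699 genes were called, with 15 of 41 matrix genes higher and 1 lower, 6 of 10 macrophage and 5 of 8 mesothelial markers higher, and 8 of 20 fatty acid synthesis genes lower. The count was 267 and 168 without young adipocyte replicates 1 and 2. It was 291, 258 and 267 without young progenitor replicates 1, 2 and 4, 237 and 282 without old progenitor replicates 1 and 2, and 713 without old progenitor replicate 3, so the number of genes called here depends on single libraries.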

How the data were processed

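The members and gene lists were chosen with earlier results of these data known. The authors deposited whole-number counts, not normalized, in a table of 55484 genes and 170 libraries. Libraries were 3'-biased poly(A) RNA, per the labels' protocols, so levels are not compared between genes. Reads were assigned to samples with sabre 80faf94, per the labels' protocols, and STAR, the assembly GRCm38.p6 (also called mm10) and featureCounts 2.0.1 are named in the submitters' processing notes. Use of molecular identifiers or of strand in the counting: not given in the sources used here. PCR copies may therefore make counts less than independent.

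The glmQLFit and glmQLFTest functions of edgeR 4.0.16 (R 4.3.3), with TMM factors, were run on the 7 young libraries alone, after filterByExpr (minimum count 10, total 15), with Benjamini-Hochberg adjustment over all genes tested and a threshold of 0.05. TMM factors were 0.841 to 0.888 in adipocytes and 1.09 to 1.12 in progenitors. Old libraries were fitted alike, and the change with age by an interaction over the 4 groups. The tests were tried on simulated counts. Genes named by rank were called, did not overlap between the groups and reached a mean of 50 CPM in 1 of them (sex-linked, unnamed, pseudogene, antisense and immune receptor genes left out): the 15 highest and 15 lowest log2 fold changes, and 5 each for the interaction with no rule on overlap. Any member of 41 lists could be named as well. Of these 30 genes 11 overlap another gene model in GENCODE M21, 6 of them a protein-coding one. Coordinates are on GRCm38. Among 22 replicate pairs 0 were identical. The 26 entries with names turned into dates held 0.164% of counts. Folds against 0 counts used a floor of 3 counts over the group. Alternatives were RLE and upper-quartile scaling, no filter, DESeq2 1.42.0, a replicate block, all fat libraries in 1 fit, a test against a fold of 2, and leaving out each library.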

Additional observations from a re-analysis of the deposited data

Results flagged for a closer look

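In 18 of 229 genes looked at, 1 of the 4 young progenitor libraries stood apart from the other 3. The rule flags about 1 in 20 groups of normally distributed values. It always flags a gene with counts in 1 library alone, so the 18 cannot be set against that rate. Mrgprg in replicate 3 was at 212 CPM against 17.2 to 24.0 CPM, and Ccl11 in the same library at 589 CPM and Ccl5 at 3.07 CPM were also its highest values. Replicate 1 was the highest for Aldh6a1 (28.7 CPM), Bmp4 (14.8 CPM), Runx1 (14.0 CPM), Cav2 (4.92 CPM), Slc2a4 and C6 (1.64 CPM each), and the lowest for Aldh1a3 (87.0 CPM). Replicate 4 was the highest for Flrt2 (199.6 CPM), Lama2 (223 CPM) and Col4a5 (59.8 CPM), and replicate 2 for Bmp7 (13.8 CPM). Wfdc21 in replicate 2 (0.512 CPM) and Ces1f and Cd3d in replicate 4 (0.211 CPM each) rested on 1 count. Col4a3 in replicate 3 was the lowest of its group (10.05 CPM), by a small margin. In old adipocytes, replicate 5 held 0.322% of its counts in Dcn, above the other 4 libraries.

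The difference between the cell types differed with age, by the edgeR interaction, for 34 genes given in the text and for Cox7a1. It was positive for 21 genes lower in young adipocytes, namely Mfap4 (7.18), Dkk3 (6.56), Cx3cr1 (5.99), Map1a (5.59), Mrc2 (5.49), Calml4 (5.14), Flrt2 (4.75), Col4a5 (3.73), Mgp (3.65), C1qb (3.19), Fgf7 (3.12), Timp2 (3.01), Igfbp6 (2.46), Fzd2 (2.36), Postn (2.35), Col1a2 (2.32), Eln (2.16), Fzd7 (1.84), Prrx1 (1.77), Cpt1a (1.32) and Lpin2 (1.30). Mfap4, Dkk3 and Cx3cr1 had 0 counts in young adipocytes, so their values depend on the prior count. The old difference was nearer to 0 in these, except that Map1a was called higher in old adipocytes (log2 fold change 2.52), and that Mrc2 (0.72), C1qb (0.94) and Lpin2 (0.42) had a value above 0 that was not called. Trdn (5.74) was called in the old (5.28) and not in the young (-0.43). Cox7a1 was likewise called in the old (log2 fold change 3.51) and not in the young (0.73), with an adjusted p of 0.0329 in the edgeR interaction. For 12 genes higher in young adipocytes the interaction was negative, namely Bmp3 (-4.32), Ccl5 (-3.97), Nkg7 (-3.90), Snhg11 (-3.39), Nr1d1 (-3.31), Cd36 (-2.74), Acacb (-2.71), C4b (-2.53), C2 (-2.40), Acaca (-1.84), Aldh6a1 (-1.67) and Thbs2 (-1.36).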

How the results depend on the processing

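The count of 6946 genes called in the young stayed within 1.5 times under RLE (6923) and upper-quartile scaling (6943), no filter (8235), DESeq2 (6627) and all fat libraries in 1 fit (7341), and ran from 6295 to 6801 without single libraries. A test against a fold of 2 called 3538, since it asks for more. Past a fold of 2 the count ran from 4881 to 5411 without single libraries. The count of genes called in the old, with no limit on the fold, ran from 5465 to 7270. The interaction count of 487 was 893 with no filter and 803 with DESeq2, and ran from 168 to 713 without single libraries; the cause was not tested. The labels do not say that replicate numbers pair the libraries. Deviations from the group mean had correlations of 0.034, -0.024 and -0.089 between same-numbered young libraries. So few pairs, across different cell types, cannot decide whether pools were shared. With the replicate block the counts were 6230 in the young, 4978 past a fold of 2, 6347 in the old and 290 in the interaction. In that interaction Cx3cr1 (adjusted p = 0.0562) and Ccl5 (adjusted p = 0.0518) were no longer called. The share of higher calls in the interaction was 66.1%, 75.9% with the block and 54.7% without old progenitor replicate 3. The median log2 fold change moved by less than 0.1 under other scalings, and was -0.52 with no filter, which adds genes of few counts. Of 3189 values of 228 genes under alternatives, 3157 kept direction and call, 30 kept direction but were no longer called, and 2 reversed, both of Col4a3, which was not called: its log2 fold change was -0.074 with no filter and ran from -0.27 to 0.31 without single libraries. Of 1148 counts over 41 lists, 1103 stayed within 1.5 times; the TGF-beta and BMP list had 8 higher members with no filter or with all fat libraries, and the nuclear receptors 3 lower ones with all fat libraries. Depth limits genes of few counts, whose ratios have wide intervals.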
